A study of Homo sapiens with 18 samples.

Results

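The genes described here are those whose transcripts moved the same way at every time measured when aminaphtone was added to interleukin-1β (IL-1β)-stimulated ECV304 cells. All 18 arrays of the series were used, 9 with the drug and 9 without. For each transcript cluster, the array's unit for 1 gene or transcript, the treated minus control difference was taken within 1, 3 and 6 h, and the 3 differences were averaged. Of 17853 transcript clusters tested, 7672 (43%) had the same sign at all 3 times. In 127 of these the average passed an adjusted p of 0.05 in limma, and they include 115 genes with a single symbol, 54 higher and 61 lower with aminaphtone.

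ECV304 is an established human cell line whose labels give it both endothelial and epithelial traits. Confluent cultures were kept in 1% serum for 24 h and then received recombinant IL-1β at 100 IU/ml, in both the control and the treated groups. Control cultures received medium alone beside the cytokine, and treated cultures received aminaphtone at 6 µg/ml. RNA was taken at 1, 3 or 6 h, with 3 arrays for each of the 6 groups, described by the submitters as independent replicates. No group lacked IL-1β, so a difference describes the drug in stimulated cells of 1 line at 1 dose. The comparison asks which transcripts aminaphtone, a naphthohydroquinone derivative given for capillary and venous disorders, alters under this cytokine.

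IL-1β binds its receptor and, through adaptor and kinase steps, activates NF-κB and the stress-activated MAP kinases. In vascular and epithelial cells these switch on chemokines, cytokines, adhesion molecules and matrix-degrading enzymes, and also the inhibitors that end the response. Endothelin-1, the product of EDN1, is a strong constrictor of blood vessels and is among the genes that such cells make under cytokines.

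The labelled cell type was set against its markers. Of 20 endothelial markers, 7 lay under the signal filter, among them PECAM1 (mean log2 signal 5.30), KDR (5.45) and TEK (5.30), and the adhesion protein CDH5 read 6.99. The epithelial keratins KRT8, KRT18 and KRT7 read 12.4, 11.7 and 11.4. Over the lists, mean signals ran from 4.30 to 9.20 (median 6.6) for the 20 endothelial markers and from 5.56 to 12.4 (median 7.31) for 18 urothelial and epithelial markers; levels of different probe sets are not compared. The mean log2 signal of the endothelial list ranged from 6.51 to 6.86 in 1 h controls and from 6.43 to 6.61 in treated arrays at that time. At 3 h it ran from 6.655 to 6.807 in controls and from 6.5 to 6.648 in treated arrays, without overlap. It ran from 6.62 to 6.78 and from 6.56 to 6.72 at 6 h, in the same order.

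The arrays were not equally alike. Signals ran from 1.85 to 14.25 on the log2 scale, with array medians of 6.93 to 7.05. Within the 1 h control group the correlation across transcript clusters was 0.964 to 0.986, against at least 0.986 in each other group. Dim and bright transcripts also differed: with the transcript clusters ranked by signal into 4 equal parts, 42.5% of the dimmest part were lower at all 3 times and 8.27% higher, while of the brightest part 12.1% were lower and 19.2% higher. The median average difference was -0.068 and 0.04 in these parts, and -0.031 over all.

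The average passed the threshold in 134 transcript clusters (0.751%), 69 higher (0.386% of those tested) and 65 lower (0.364%), and 3296 (18.5%) had an unadjusted p under 0.05. With the same sign at all 3 times required, 65 were higher (0.364%) and 62 lower (0.347%). Single genes rose by a median log2 difference of 0.46 and at most 0.96, and fell by a median of 0.51 and at most 1.71. Past 0.5 in size were 18 of the 54 higher and 31 of the 61 lower genes. In 3 of the 115 (MIR29A, SERPINI1 and IL7R) the mean of the 9 control or of the 9 treated arrays lay under the signal filter of 5.52, so they passed it only through the group where they were high, and their differences are a description. The median signal of the higher genes was 8.19 and of the lower genes 8.29, against 7.95 for all genes tested.

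The count depended on single arrays. Without control replicate 1 at 1 h the average called 3404 transcript clusters, all 134 among them, and without control replicate 2 at 1 h it called 185, of which 124 were shared. Leaving out an aminaphtone 1 h array gave 47, 83 and 84 (replicates 1, 2 and 3), and leaving out control replicates 2 and 3 at 3 h gave 75 and 84. Without aminaphtone replicates 1 and 3 at 3 h the counts were 74 and 57. Without the 6 h controls in turn they were 54, 79 and 86, and without the 6 h treated arrays 84, 54 and 51. Of the 127 transcript clusters called with 1 sign, 43 were called with each of the 18 arrays left out in turn.

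**Figure D1:**
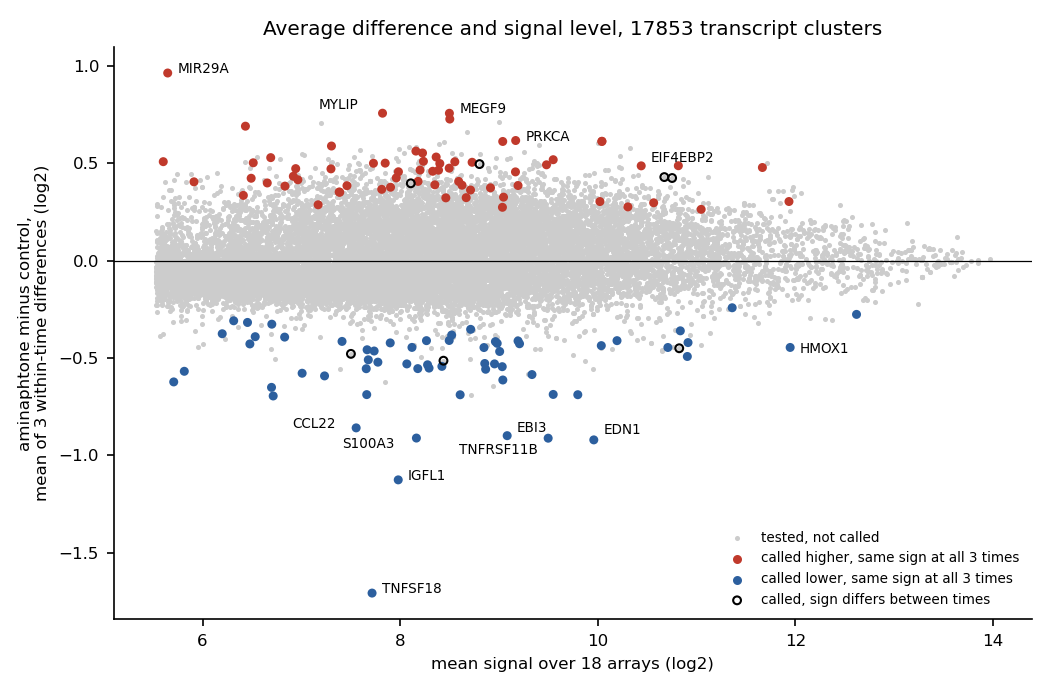
Average aminaphtone minus control difference (vertical axis, log2) against the mean signal over 18 arrays (horizontal axis, log2) for 17853 transcript clusters. Red and blue points are transcript clusters called higher (65) or lower (62) with the same sign at all 3 times, open circles the 7 called with mixed signs, and grey points the rest; TNFSF18 at -1.71 and MIR29A at 0.96 lie at the 2 ends.

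TNFSF18, which encodes the ligand of the T-cell costimulatory receptor GITR, fell 3.27-fold, more than any other gene called. CCL22, a chemokine that draws T cells bearing CCR4, fell 1.81-fold, and EBI3, the shared subunit of IL-27 and IL-35, fell 1.86-fold. IL1B, the gene of the stimulating cytokine, the neutrophil chemoattractant CXCL6 and the cytokine IL32 fell 1.61-fold, 1.44-fold and 1.38-fold.

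TNFSF18 signals in control arrays were 8.34, 6.99 and 8.02 at 1 h, 9.03, 9.69 and 9.16 at 3 h, and 8.63, 8.05 and 9.20 at 6 h. With aminaphtone they were 6.46, 6.33 and 6.75 at 1 h, 6.94, 7.30 and 7.38 at 3 h, and 6.46, 6.98 and 7.14 at 6 h. Treated and control arrays did not overlap at any time, and every control at 3 h and 6 h was above every treated array of any time. The within-time differences were -1.27, -2.09 and -1.77, with an average of -1.71 (SE 0.182, adjusted p = 0.000322). This call held with each array left out and with each time left out (average between -1.93 and -1.52, highest adjusted p = 0.0346).

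CCL22 read 6.94, 7.34 and 7.53 at 1 h, 7.99, 8.73 and 8.50 at 3 h, and 8.44, 8.01 and 8.37 at 6 h in control arrays. Treated arrays gave 6.74, 6.82 and 6.93 at 1 h, 7.33, 7.45 and 7.03 at 3 h, and 7.22, 7.32 and 7.28 at 6 h. The treated arrays stayed below every control array of their own time, and every control array at 3 h and 6 h was above every treated array of any time. The average was -0.86 (SE 0.106, adjusted p = 0.00057).

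EBI3 signals were higher at the later times in both groups. Control arrays read 8.07, 8.84 and 8.95 at 1 h, 9.63, 9.71 and 9.99 at 3 h, and 10.31, 10.29 and 9.99 at 6 h. Those with aminaphtone were 7.59, 7.75 and 7.94 at 1 h, 9.08, 9.06 and 8.81 at 3 h, and 9.32, 9.17 and 8.99 at 6 h. No treated array reached a control array of the same time, and the gap was much alike at each, -0.86, -0.79 and -1.04. The average was -0.90 (SE 0.109, adjusted p = 0.00057).

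For IL1B the control signals were 6.11, 6.22 and 6.65 at 1 h, 8.57, 9.46 and 9.25 at 3 h, and 8.78, 7.89 and 9.11 at 6 h, and the treated signals were 5.84, 6.02 and 6.03 at 1 h, 8.08, 8.41 and 7.98 at 3 h, and 7.72, 7.85 and 7.93 at 6 h. The groups were apart at 1 h and 3 h, while at 6 h control replicate 2 (7.89) lay among the treated arrays. The average of -0.69 (SE 0.148, adjusted p = 0.0422) lost its call on leaving out any of 13 of the 18 arrays, and with each array centred on its median. CXCL6 was lower at -0.48, -0.43 and -0.66 with no overlap at any time, and averaged -0.52 (SE 0.093, adjusted p = 0.0152). IL32 differed by -0.29, -0.43 and -0.67, averaged -0.46 (SE 0.081, adjusted p = 0.0127), and overlapped at 1 h only. Both kept the call with each array left out.

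Of 23 cytokine and chemokine genes tested, 5 were called lower and 0 higher (TNFSF18, CCL22, IL1B, CXCL6 and IL32). EBI3 is outside that list. Of all 15586 genes tested, 64 were called lower and 55 higher, and the called counts of the lists that follow have this same background. In the whole cytokine and chemokine list 14 were lower at all 3 times and 0 higher at all 3, against 27.4% lower and 15.5% higher of all genes tested. Its median was -0.211, against -0.031 for all genes. Other members did not pass. CX3CL1, the chemokine fractalkine, had an average of -0.64 without passing (adjusted p = 0.0622). The average was -0.30 for CCL2 (adjusted p = 0.167), -0.13 for IL6 (95% interval -0.30 to 0.04) and -0.05 for CXCL8 (95% interval -0.21 to 0.11). For IL6 and CXCL8 the sign differed between times, at -0.43, -0.06 and 0.09 and at 0.03, -0.07 and -0.11.

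TRAF1, an adaptor of tumour necrosis factor receptors and itself induced through NF-κB, fell 1.47-fold. It was the 1 gene called lower of 25 NF-κB feedback and target genes, and CD83, a surface protein of activated antigen-presenting cells, was the 1 called higher, at an average of 0.49 (SE 0.097, adjusted p = 0.0253). Control TRAF1 signals were 8.07, 8.31 and 8.70 at 1 h, 9.63, 9.98 and 9.88 at 3 h, and 9.17, 9.18 and 9.37 at 6 h, and treated signals were 7.66, 7.29 and 7.85 at 1 h, 9.36, 9.30 and 9.08 at 3 h, and 9.01, 8.85 and 8.87 at 6 h. All treated arrays were lower than all controls of their time, and both groups were highest at 3 h. The average was -0.56 (SE 0.093, adjusted p = 0.0107). TRAF1 kept its call with each array left out, and CD83 lost its call on leaving out 9 of the 18. In the rest of the list the average was 0.07 for the inhibitor NFKBIA, 0.03 for TNFAIP3 and -0.05 for NFKB1, and none of these passed. ICAM1, an adhesion molecule that leukocytes bind, averaged -0.02 (95% interval -0.17 to 0.12) over differences of mixed sign, -0.38, 0.15 and 0.16. The leukocyte adhesion receptor SELE averaged 0.40 (adjusted p = 0.0697), with differences of -0.02, 0.31 and 0.92.

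**Figure D2:**
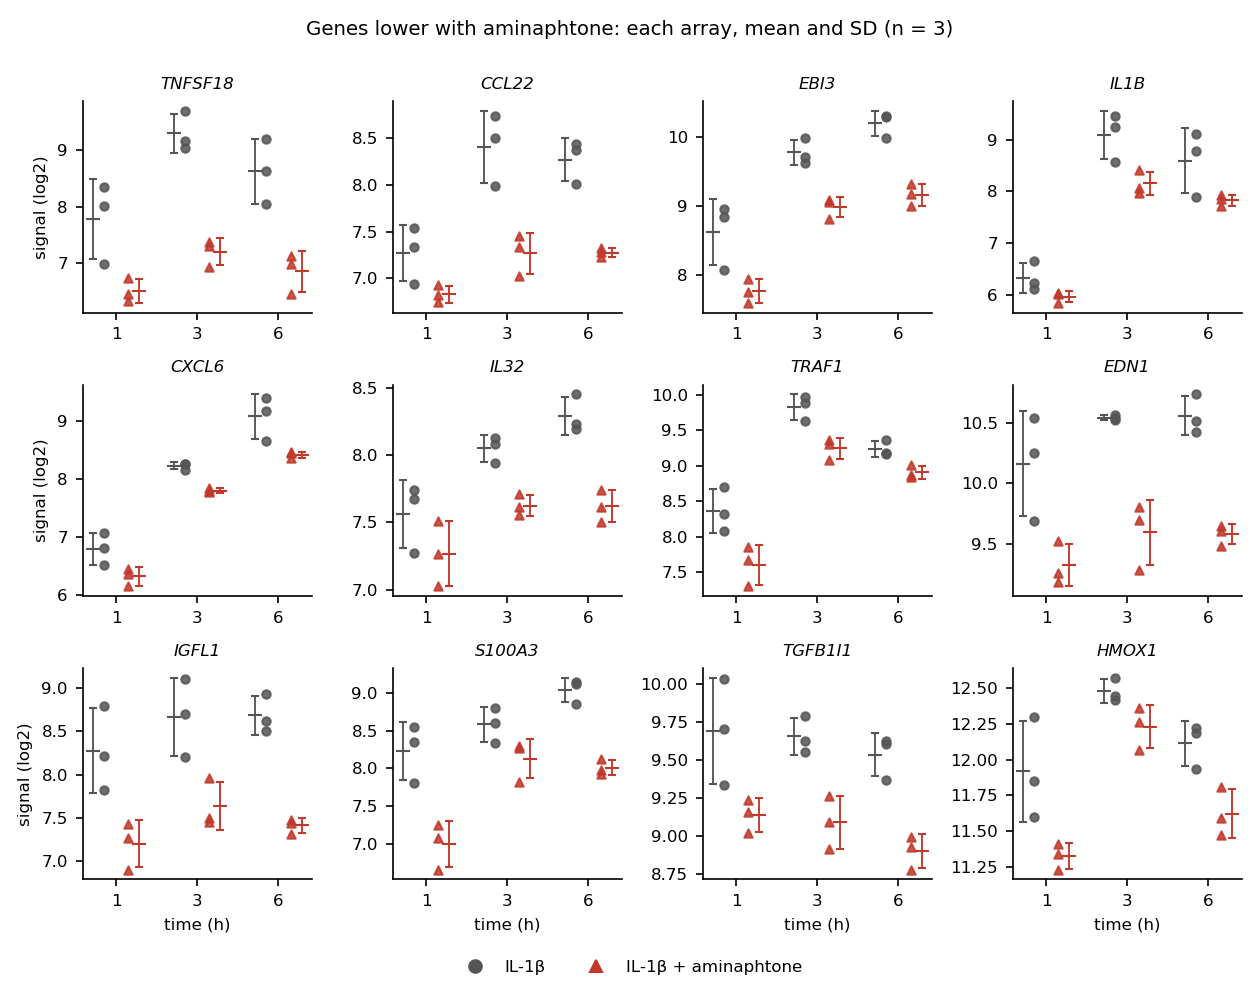
Log2 signal of 12 genes called lower (vertical axes, one scale per gene) at 1, 3 and 6 h (horizontal axes), with 1 point per array, circles for IL-1β alone and triangles for IL-1β with aminaphtone; bars are the mean and SD of 3 arrays. Treated arrays lie below every control array of their time for all but IL1B at 6 h and IL32 at 1 h.

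The upstream sequences of 4 of these genes are shown because each holds a match to the κB consensus, the motif that NF-κB dimers bind. They are RefSeq windows (GRCh38.p14) from 250 bases before to 50 after the annotated start, 5′ to 3′ along the gene, with the κB matches, and the AP-1 match of EBI3, in capitals. CCL22 is at chr16:57358533-57358832 on the plus strand, EBI3 at chr19:4229273-4229572 (plus), CXCL6 at chr4:73836428-73836727 (plus) and IL32 at chr16:3065153-3065452 (plus). The 4 were picked after their values and matches were seen.
CCL22: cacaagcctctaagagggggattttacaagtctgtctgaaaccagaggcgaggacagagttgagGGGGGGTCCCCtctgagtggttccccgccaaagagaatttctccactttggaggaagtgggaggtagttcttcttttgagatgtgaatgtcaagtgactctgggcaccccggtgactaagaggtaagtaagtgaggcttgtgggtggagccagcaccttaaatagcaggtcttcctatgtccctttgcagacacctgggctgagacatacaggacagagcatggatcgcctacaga
EBI3: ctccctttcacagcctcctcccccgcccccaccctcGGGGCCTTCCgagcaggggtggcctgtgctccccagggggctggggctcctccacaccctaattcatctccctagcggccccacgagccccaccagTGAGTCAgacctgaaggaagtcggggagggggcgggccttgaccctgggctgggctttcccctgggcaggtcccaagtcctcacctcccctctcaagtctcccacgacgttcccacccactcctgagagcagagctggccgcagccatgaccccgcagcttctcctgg
CXCL6: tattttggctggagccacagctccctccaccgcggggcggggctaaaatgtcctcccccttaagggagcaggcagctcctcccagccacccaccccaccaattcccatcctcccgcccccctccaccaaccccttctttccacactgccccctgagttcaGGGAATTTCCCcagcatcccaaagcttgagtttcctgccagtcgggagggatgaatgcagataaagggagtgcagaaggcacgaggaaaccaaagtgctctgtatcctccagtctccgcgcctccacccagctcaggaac
IL32: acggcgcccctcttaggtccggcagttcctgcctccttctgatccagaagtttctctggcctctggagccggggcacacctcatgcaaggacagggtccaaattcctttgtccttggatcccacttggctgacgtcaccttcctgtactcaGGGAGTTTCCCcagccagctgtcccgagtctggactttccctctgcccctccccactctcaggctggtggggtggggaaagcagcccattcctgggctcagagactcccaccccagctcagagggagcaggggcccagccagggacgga
The κB matches of CXCL6 and IL32 began at -90 and -99 from the start, and those of EBI3 and CCL22 at -214 and -186. In CXCL6, IL32 and CCL22 a pair of overlapping matches forms 1 run of capitals.

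Windows were found for 86 of the 115 genes, 45 lower and 41 higher. The κB consensus, searched on both strands, was present in 12 of the 45 lower genes (26.7%) and 6 of the 41 higher genes (14.6%), against 11.3% of 35116 RefSeq promoter windows of the same length. AP-1 (TGANTCA) was found in 5 lower genes (11.1%) and 2 higher genes (4.88%), against 7.71% of all. The core GCGTG, bound by the aryl hydrocarbon receptor, was in 25 higher genes (61%) and 17 lower genes (37.8%), against 36.5%. The antioxidant response core (TGACNNNGC) was in 17.1% of higher and 13.3% of lower genes, against 13.3%, and the hypoxia core (ACGTG) in 24.4% and 28.9%, against 21.4%. The CRE motif (TGACGTCA) was in 3 lower genes (6.67%) and 1 higher gene (2.44%), against 1.85%. The E2F motif (TTTNGCGC) was in 0 lower genes and 1 higher gene (2.44%), against 1.79%. The CHR motif (TTTGAA) was in 13.3% of lower and 12.2% of higher genes, against 15.2%. The windows compared with are of all RefSeq promoters, not only of genes tested. These matches are letters in a window and were not tested. The windows of TNFSF18, EDN1, IL1B and TRAF1 held no κB or AP-1 match.

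EDN1, the endothelin-1 gene, fell in the average with much the same difference at each time. Signals in control arrays were 10.25, 9.69 and 10.54 at 1 h, 10.52, 10.54 and 10.56 at 3 h, and 10.42, 10.73 and 10.52 at 6 h. Aminaphtone arrays gave 9.26, 9.19 and 9.52 at 1 h, 9.80, 9.69 and 9.29 at 3 h, and 9.65, 9.61 and 9.49 at 6 h. The lowest control at any time, 9.69 at 1 h, was above all 3 treated arrays of that time, and at 3 h and 6 h the groups were farther apart. The differences were -0.84, -0.95 and -0.98, for an average of -0.92 (SE 0.102, adjusted p = 0.000322), which is 1.89-fold. The call held with each array left out and was lost without the 6 h arrays (adjusted p = 0.0675).

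EDN1 was the 1 called gene of 24 haemostasis and vasoactive genes tested, and 7 in the list were lower at all 3 times (29.2%, against 27.4% of all genes). Among the others PLAT, tissue plasminogen activator, averaged -0.51, and F3, tissue factor, and THBD, thrombomodulin, -0.26 and -0.24. None of these passed, and neither did PTGS2, the inducible prostaglandin synthase, at 0.09.

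Other secreted signals and receptors fell too. IGFL1, of the insulin growth factor-like family, fell 2.18-fold and PDGFB, a platelet-derived growth factor chain, 1.53-fold, the 2 called of 25 growth factor and EGF family genes. IGFL1 in control arrays was 7.82, 8.22 and 8.79 at 1 h, 8.20, 9.11 and 8.70 at 3 h, and 8.62, 8.50 and 8.93 at 6 h, and in treated arrays 6.90, 7.27 and 7.43 at 1 h, 7.50, 7.96 and 7.45 at 3 h, and 7.48, 7.32 and 7.45 at 6 h. The treated arrays were lower at every time, and the average was -1.13 (SE 0.139, adjusted p = 0.00057). PDGFB differed most at 1 h (-1.06, -0.33 and -0.44), averaged -0.61 (SE 0.120, adjusted p = 0.0253) and lost its call on leaving out 9 of the 18 arrays.

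TNFRSF11B, the decoy receptor osteoprotegerin, averaged -0.91 (SE 0.165, adjusted p = 0.0155), with differences of -0.58, -1.39 and -0.77. S100A3, a calcium-binding S100 protein, averaged -0.91 (SE 0.112, adjusted p = 0.00057), with its smallest difference at 3 h (-1.24, -0.45 and -1.03). DKK1, a secreted inhibitor of Wnt signalling, averaged -0.53 (SE 0.086, adjusted p = 0.00924) and differed most at 6 h, and was the 1 called of 29 Wnt pathway genes. IL7R, the interleukin-7 receptor chain, averaged -0.62 (SE 0.125, adjusted p = 0.0275) at a mean signal of 5.71; its control arrays averaged 6.02 and its treated arrays 5.40, under the filter. It lost its call on leaving out any 1 of 10 arrays. CYP24A1, the enzyme that inactivates vitamin D, was steady at -0.60, -0.75 and -0.60, with an average of -0.65 (SE 0.099, adjusted p = 0.00569).

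Secreted collagenase and stromelysin genes fell in the average, with their largest differences at 6 h. MMP1, MMP3 and MMP10 degrade collagen, proteoglycans and other matrix proteins. They were the members called of 20 matrix metalloproteinase and inhibitor genes tested, against 64 lower and 55 higher of all 15586 genes. In the list 9 were lower (45%, against 27.4% of all genes) and 0 higher at all 3 times. The list's median signal was 7.29, and 35.7% of transcript clusters with signals of 6.84 to 7.93 were lower at all 3 times. Control MMP10 signals were 5.64, 5.84 and 5.49 at 1 h, 7.45, 7.33 and 7.55 at 3 h, and 8.89, 8.32 and 9.15 at 6 h, and treated signals 5.57, 5.72 and 5.61 at 1 h, 7.01, 6.87 and 7.06 at 3 h, and 7.30, 7.55 and 7.77 at 6 h. At 1 h the groups overlapped at signals near the filter of 5.52, and from 3 h on they were separate. MMP10 averaged -0.58 (SE 0.098, adjusted p = 0.0118), MMP1 -0.59 (SE 0.125, adjusted p = 0.0383) and MMP3 -0.69 (SE 0.151, adjusted p = 0.0449). Differences ran -0.03, -0.46 and -1.24 for MMP10, -0.12, -0.53 and -1.13 for MMP1 and -0.02, -0.71 and -1.36 for MMP3. MMP10 kept its call with each array left out, while MMP1 and MMP3 lost theirs on leaving out 14 and 15 of the arrays. MMP1 and MMP3 also lost it when arrays were centred on their medians or quantile normalized again. In an additive model of time and treatment MMP1, MMP3 and MMP10 all lost the call.

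Of 33 extracellular matrix genes, 2 were called lower and 0 higher, against 64 and 55 of all 15586 genes. Lower at all 3 times were 12 (36.4%, against 27.4% of all genes). The list's median signal was 7.71, and 35.7% of transcript clusters with signals of 6.84 to 7.93 were likewise lower. LAMB3, a chain of the basement membrane laminin of epithelia, averaged -0.55 (SE 0.112, adjusted p = 0.0292) and overlapped at 1 h and 3 h, and LOX, which cross-links collagen and elastin, averaged -0.37 (SE 0.075, adjusted p = 0.0272). Epithelial genes were also among the falls. KRT16, a keratin of stressed epithelium, averaged -0.69 (SE 0.136, adjusted p = 0.0257) with no overlap at any time, and GRHL3, a transcription factor of epithelial barriers, -0.32 (SE 0.062, adjusted p = 0.0253); GRHL3 was the 1 called of 18 urothelial and epithelial markers. These calls were lost on leaving out 12 of the 18 arrays for LAMB3, 10 for LOX, 8 for KRT16 and 9 for GRHL3, and LOX also lost its call with centred or newly quantile normalized arrays and in the additive model.

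Several falling genes encode proteins of actin filaments and focal adhesions, a grouping made after the values were seen. TGFB1I1, the focal adhesion protein Hic-5, gave control signals of 9.34, 10.03 and 9.70 at 1 h, 9.55, 9.63 and 9.79 at 3 h, and 9.61, 9.62 and 9.37 at 6 h, and treated signals of 9.02, 9.16 and 9.24 at 1 h, 9.09, 9.27 and 8.91 at 3 h, and 8.99, 8.93 and 8.78 at 6 h. No arrays overlapped within a time. The 3 differences, -0.55, -0.57 and -0.63, were among the steadiest of all called genes, and the average was -0.58 (SE 0.087, adjusted p = 0.00498). TAGLN, the actin-binding protein transgelin, averaged -0.55 (SE 0.105, adjusted p = 0.0212) and FBLIM1, the filamin-binding protein migfilin, -0.54 (SE 0.0938, adjusted p = 0.0123). TRIP6, a zyxin-family adhesion protein, averaged -0.43 (adjusted p = 0.0464). FBLIM1 kept its call with each array left out, TAGLN in 14 of the 18 such fits and TRIP6 in 3. STX4, a plasma membrane SNARE protein of vesicle fusion, was as steady, at -0.58, -0.48 and -0.52 and an average of -0.53 (SE 0.091, adjusted p = 0.0123). EVA1A, a membrane protein linked to autophagy, averaged -0.53 (SE 0.062, adjusted p = 0.000462), the smallest adjusted p after TNFSF18, EDN1 and MYLIP among single-symbol genes with 1 sign.

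The genes of low oxygen and sugar breakdown had their lowest median difference at 6 h. Of 42 tested, 6 were called lower and 0 higher, against 64 lower and 55 higher of all 15586 genes. Only DDIT4, ENO2 and SLC2A1 of the 6 had the same sign at all 3 times. In the whole list 10 were lower at all 3 times (23.8%, against 27.4% of all genes) and 1 higher. DDIT4, an inhibitor of mTORC1, averaged -0.69 (SE 0.133, adjusted p = 0.0241) with differences of -0.92, -0.49 and -0.65. SLC2A1, the glucose transporter GLUT1, averaged -0.49 (SE 0.108, adjusted p = 0.0464) and ENO2, an enolase, -0.54 (SE 0.120, adjusted p = 0.0475). Both differed most at 6 h, with differences of -0.29, -0.25 and -0.93 for SLC2A1 and -0.34, -0.08 and -1.21 for ENO2. With 1 array left out in turn, DDIT4 kept its call in 10 of 18 fits, SLC2A1 in 3 and ENO2 in 2. The other called members, HK2, PFKFB4 and BNIP3, had mixed signs, with differences of 0.09, -0.46 and -1.17, -0.08, 0.06 and -1.42 and 0.15, -0.16 and -1.34. The list's median was -0.031 at 1 h, -0.009 at 3 h and -0.276 at 6 h.

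The rises were smaller in median size than the falls. MIR29A, MYLIP, MEGF9 and ZNF487 rose most among genes with a single symbol, between 1.61-fold and 1.95-fold. MYLIP is a ubiquitin ligase that marks the low-density lipoprotein receptor for breakdown, and MEGF9 a membrane protein with EGF-like repeats. PRKCA (1.53-fold) is a protein kinase C, MERTK (1.45-fold) a receptor kinase for the uptake of dying cells, and CTSK (1.50-fold) the protease cathepsin K.

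MYLIP in control arrays was 7.51, 7.11 and 7.62 at 1 h, 7.46, 7.58 and 7.45 at 3 h, and 7.54, 7.28 and 7.40 at 6 h. With aminaphtone it was 8.79, 8.91 and 9.06 at 1 h, 7.98, 8.37 and 7.97 at 3 h, and 7.72, 7.43 and 7.57 at 6 h. The groups were separate at 1 h and 3 h and overlapped at 6 h, and the treated 1 h arrays were the highest of the 18. Differences fell away with time, 1.50, 0.60 and 0.17, around an average of 0.76 (SE 0.083, adjusted p = 0.000322). This call held under every one of 32 alternatives.

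MEGF9 was steadier. Control arrays read 9.06, 7.80 and 8.64 at 1 h, 7.87, 7.57 and 8.06 at 3 h, and 7.89, 7.94 and 8.24 at 6 h, and treated arrays 9.33, 8.95 and 9.33 at 1 h, 8.54, 8.52 and 8.89 at 3 h, and 8.74, 8.78 and 8.82 at 6 h. They overlapped at 1 h, where control replicate 1 read 9.06, and at neither later time. The average was 0.76 (SE 0.133, adjusted p = 0.014) from differences of 0.70, 0.82 and 0.76. PRKCA had the same form, with differences of 0.57, 0.67 and 0.62, an average of 0.62 (SE 0.121, adjusted p = 0.0253) and a tie or overlap at 1 h, but lost its call on leaving out 9 arrays.

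MERTK gave 8.43, 7.76 and 8.43 at 1 h, 7.95, 7.84 and 7.95 at 3 h, and 8.20, 8.27 and 8.05 at 6 h in control arrays and 8.48, 8.52 and 8.69 at 1 h, 8.78, 8.71 and 8.78 at 3 h, and 8.56, 8.51 and 8.64 at 6 h in treated arrays. All treated arrays were higher than all controls of their time, the widest gap being at 3 h. The average was 0.53 (SE 0.082, adjusted p = 0.00592). EIF4EBP2, which binds the cap-binding factor eIF4E and holds back translation, read 10.29, 10.09 and 10.51 at 1 h, 10.16, 10.07 and 10.40 at 3 h, and 10.00, 10.09 and 10.17 at 6 h in controls and 10.59, 10.57 and 10.68 at 1 h, 10.89, 10.97 and 10.68 at 3 h, and 10.62, 10.58 and 10.57 at 6 h with the drug, again with no overlap. It averaged 0.49 (SE 0.069, adjusted p = 0.00328). SAMD4A, a Smaug-family protein that represses bound messenger RNAs, averaged 0.46 (SE 0.066, adjusted p = 0.00356) with no overlap at any time. These 3 kept their calls with each array left out.

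**Figure D3:**
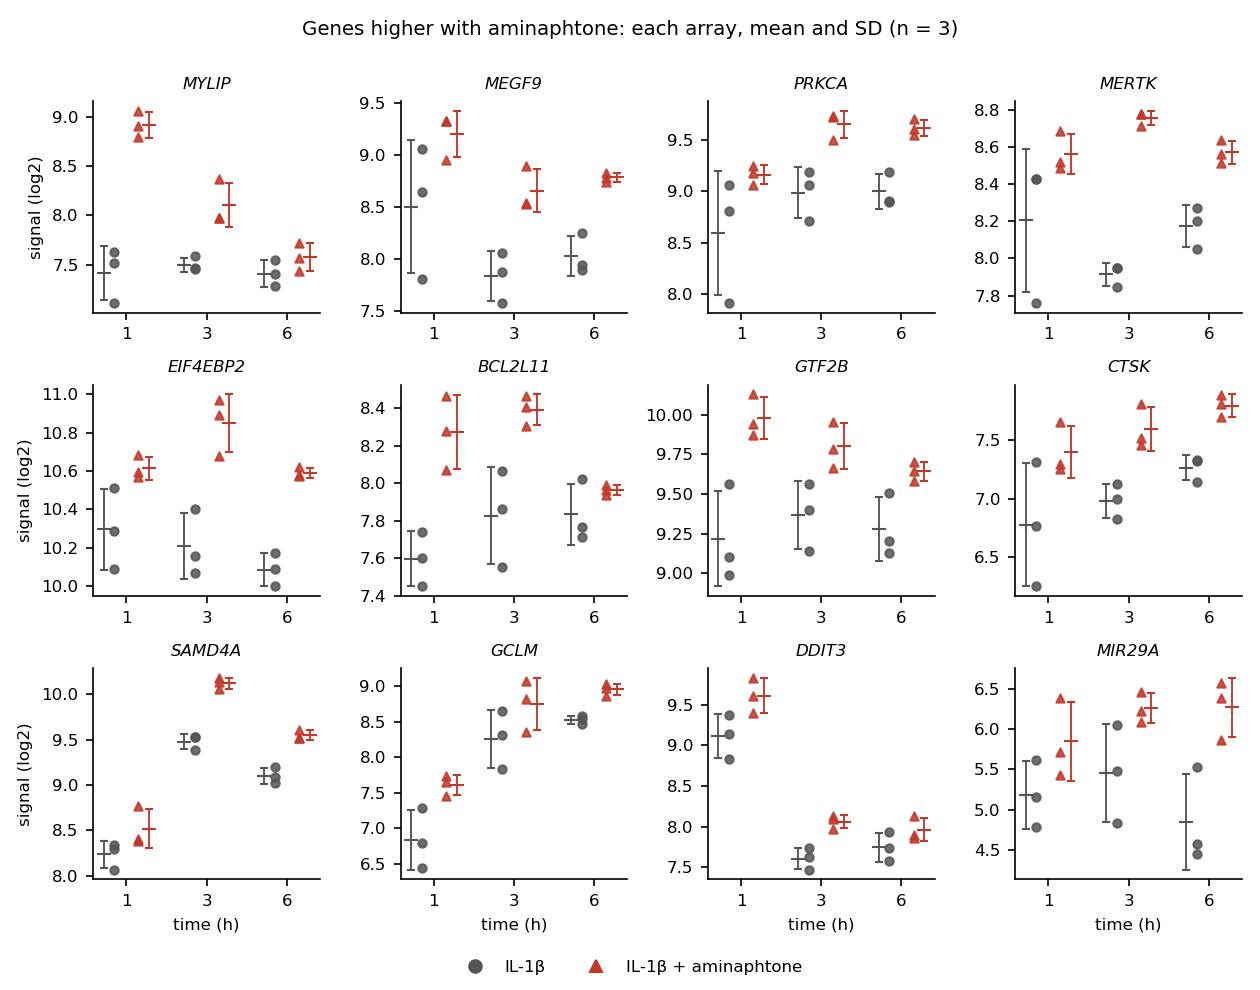
Log2 signal of 12 genes called higher (vertical axes, one scale per gene) at 1, 3 and 6 h (horizontal axes), 1 point per array, circles for IL-1β alone and triangles for IL-1β with aminaphtone; bars are the mean and SD of 3 arrays. MERTK, EIF4EBP2, GTF2B and SAMD4A were separate at all 3 times, and the 1 h controls of MEGF9, PRKCA and CTSK spread widely.

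MIR29A was 1.95-fold higher in the average. The transcript cluster reports RNA of the MIR29A locus and not the mature microRNA. MicroRNAs of the miR-29 family share bases 2 to 8, the seed that pairs with target messages and that is known for repressing collagens and other matrix genes. The mature sequences from RefSeq (GRCh38.p14) are shown with the seed in capitals. The miR-29a sequence lies at chr7:130876748-130876769 on the minus strand.
hsa-miR-29a-3p: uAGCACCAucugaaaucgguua
hsa-miR-29b-3p: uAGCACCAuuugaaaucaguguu
hsa-miR-29c-3p: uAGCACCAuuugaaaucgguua

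MIR29A in control arrays was 5.61, 4.78 and 5.15 at 1 h, 4.84, 6.06 and 5.48 at 3 h, and 4.57, 4.44 and 5.54 at 6 h, and in treated arrays 5.72, 5.43 and 6.39 at 1 h, 6.09, 6.23 and 6.46 at 3 h, and 5.87, 6.39 and 6.57 at 6 h. Groups overlapped at 1 h, and each treated array was higher than each control at 3 h and 6 h. The average was 0.96 (SE 0.191, adjusted p = 0.026), at a mean signal of 5.65, the 26.9th percentile of all transcript clusters. Control arrays averaged 5.16, under the filter, and treated arrays 6.13, so the value is a description; the call was lost on leaving out any 1 of 8 arrays. MIR29B1, which lies beside MIR29A on chromosome 7, differed by 0.37 (SE 0.13) at a mean of 2.92, under the filter. The chromosome 1 members, MIR29C and MIR29B2, differed by -0.038 (SE 0.059) and -0.008 (SE 0.068), also under the filter, so the seed's 3 other transcript clusters were not tested.

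Stress and glutathione genes were split. GCLM, a subunit of the enzyme that begins glutathione synthesis, rose 1.48-fold and HMOX1, haem oxygenase-1, fell 1.36-fold, though both are classic NRF2 targets. They were the members called of 41 NRF2 and antioxidant genes, 1 in each direction. GCLM controls read 7.28, 6.44 and 6.79 at 1 h, 8.65, 7.83 and 8.31 at 3 h, and 8.58, 8.47 and 8.54 at 6 h, and treated arrays 7.74, 7.45 and 7.65 at 1 h, 8.83, 8.35 and 9.08 at 3 h, and 8.87, 8.98 and 9.03 at 6 h. At 3 h the groups overlapped, and at 1 h and 6 h they did not. GCLM averaged 0.56 (SE 0.124, adjusted p = 0.0464) and lost its call on leaving out 15 of the arrays. The other subunit, GCLC, averaged 0.55 and missed the threshold (adjusted p = 0.0535). The cystine transporter SLC7A11 averaged 0.44 with mixed signs, and NQO1, a quinone reductase, 0.14 (95% interval 0.02 to 0.26, adjusted p = 0.232).

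HMOX1 had one of the highest signals of the genes called. Control arrays gave 11.60, 12.30 and 11.85 at 1 h, 12.42, 12.45 and 12.57 at 3 h, and 12.19, 12.22 and 11.94 at 6 h, and treated arrays 11.23, 11.34 and 11.41 at 1 h, 12.36, 12.27 and 12.07 at 3 h, and 11.81, 11.59 and 11.47 at 6 h. No treated array reached a control of its time, and the difference was smallest at 3 h. The average was -0.45 (SE 0.087, adjusted p = 0.0253), with the call lost on leaving out 7 arrays. CTH, which makes cysteine from cystathionine, averaged 0.47 (SE 0.087, adjusted p = 0.017) with no overlap at any time.

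The GCLM window (chr1:93909381-93909680, minus strand, GRCh38.p14) holds an antioxidant response core at -34, given in capitals and read on the opposite strand.
GCLM: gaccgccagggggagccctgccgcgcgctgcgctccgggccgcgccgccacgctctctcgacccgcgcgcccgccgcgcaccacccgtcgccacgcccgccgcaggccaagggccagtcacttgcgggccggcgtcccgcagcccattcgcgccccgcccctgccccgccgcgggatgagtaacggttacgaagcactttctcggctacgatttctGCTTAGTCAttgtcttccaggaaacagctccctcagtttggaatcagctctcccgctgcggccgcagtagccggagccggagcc

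Of 37 genes of the unfolded protein and integrated stress response, 2 were called higher and 0 lower, against 55 and 64 of all 15586 genes. In the list 14 were higher at all 3 times (37.8%, against 15.5% of all genes) and 5 lower. DDIT3, the transcription factor CHOP, averaged 0.39 (SE 0.084, adjusted p = 0.0422) and HERPUD1, a factor of endoplasmic reticulum protein disposal, 0.30 (SE 0.066, adjusted p = 0.0479); each lost its call on leaving out 14 arrays. HSPA5, the chaperone BiP, averaged 0.36, DNAJC3 0.38 and SEL1L 0.38, none past the threshold. BCL2L11, the pro-death BCL2-family protein BIM, averaged 0.46 (SE 0.079, adjusted p = 0.0122) with differences of 0.67, 0.57 and 0.13, and was the 1 called of 18 BCL2-family genes. In that list 9 were lower at all 3 times (50%, against 27.4%), among them BID (-0.29) and BAX (-0.19), which did not pass.

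LPIN1, a phosphatidate phosphatase, averaged 0.47 (SE 0.088, adjusted p = 0.0209) and was the 1 called of 17 fatty acid synthesis genes, of which 6 were higher at all 3 times (35.3%, against 15.5% of all genes) and 0 lower. MYLIP was the 1 called of 24 sterol genes. ID2, an inhibitor of helix-loop-helix factors, averaged 0.39 (SE 0.074, adjusted p = 0.0235), with differences of 0.46, 0.66 and 0.04. FOS, the immediate early transcription factor, averaged 0.41 (SE 0.084, adjusted p = 0.0308), almost all of it at 1 h (1.09, 0.02 and 0.11). With 1 array left out in turn, FOS kept its call in 6 of 18 fits, ID2 in 12 and LPIN1 in 14, and FOS and ID2 lost theirs in the additive model. GTF2B, the general transcription factor TFIIB, averaged 0.52 (SE 0.088, adjusted p = 0.0117) and VAMP1, a vesicle SNARE, 0.50 (SE 0.080, adjusted p = 0.00777), both with no overlap at any time and with the call kept with each array left out.

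In 16 of the 30 lists at least 1 member was called, and the lists hold 29 of the 115 genes. The other 14 lists had none called by limma. Among them 0 of 13 endothelial markers passed (5 with an unadjusted p under 0.05), with a median of -0.151. Lower at all 3 times were 9 of these (69.2%, against 27.4% of all genes). In the dim leukocyte list, 0 of 10 passed (1 with an unadjusted p under 0.05), with 5 lower (50%) and a median of -0.1. The median signal was 7.47 for the endothelial and 6.375 for the leukocyte members tested, against 7.95 for all genes. No list was tested as a set, and the part of signal level in the shares of any list was not tested.

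**Figure D4:**
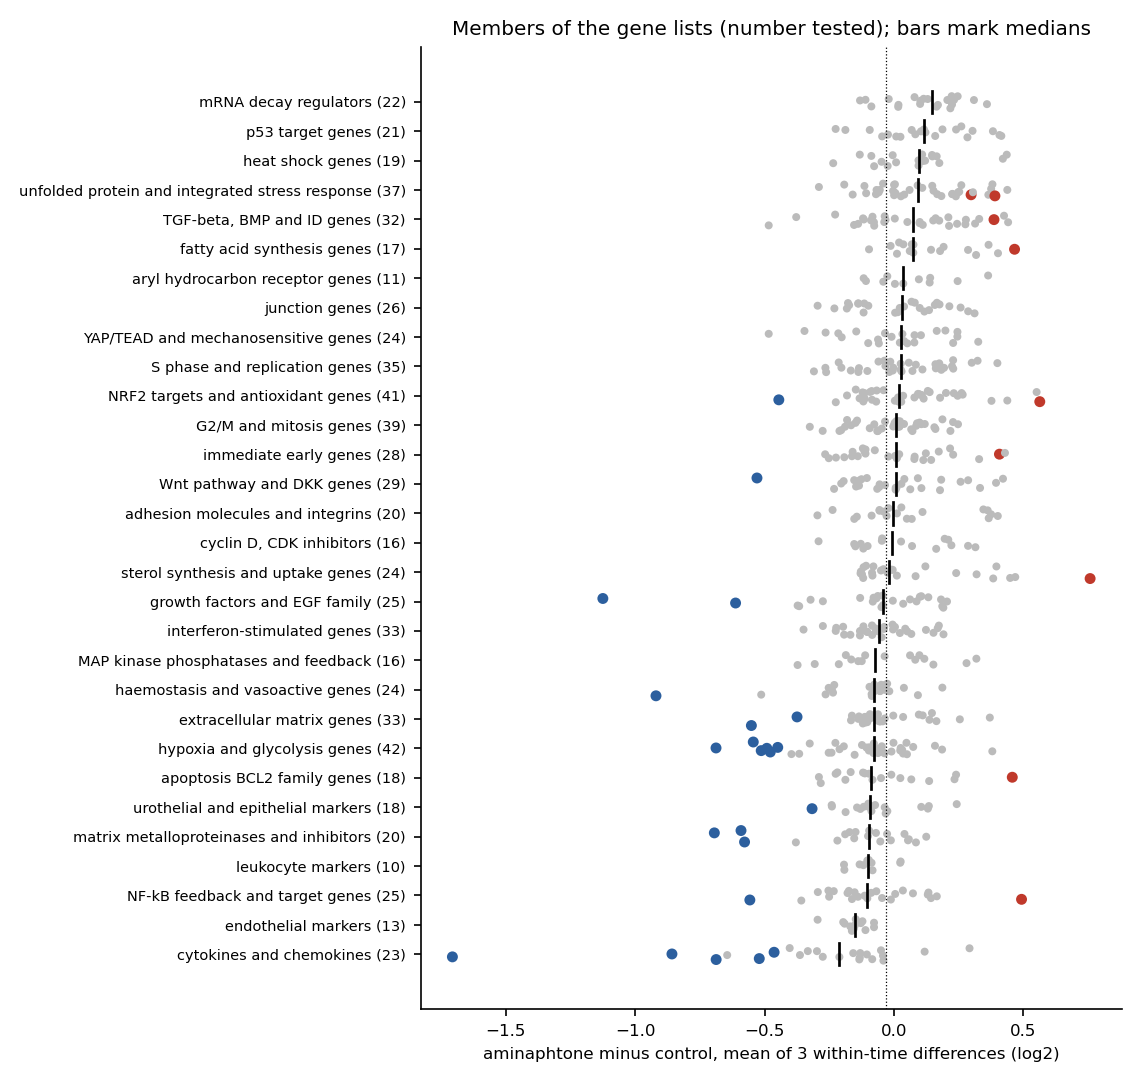
Average aminaphtone minus control difference (horizontal axis, log2) of each tested member of 30 gene lists (vertical axis, number tested in brackets), with called members red (higher) or blue (lower), and black bars at the list medians; the dotted line is the median of all genes. Cytokines and chemokines have the lowest median (-0.211) and mRNA decay regulators the highest (0.147).

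How alike the 3 differences were varied between genes. In 75 of the 115 the range of the 3 was smaller than their average. Steadiest among the falls were TGFB1I1, EDN1, STX4 and KCNN4, a potassium channel gene (-0.42, -0.36 and -0.36), and among the rises MBOAT1, an acyltransferase gene (0.38, 0.36 and 0.36), CTSK (0.62, 0.61 and 0.53), PRKCA and MEGF9. The largest of the 3 differences was at 1 h in 22 higher and 27 lower genes, at 3 h in 29 and 14, and at 6 h in 3 and 20. MYLIP and PRDM1 passed the interaction test of treatment and time, which called 6 transcript clusters (0.0336%). An unadjusted interaction p under 0.05 was found in 29 of the 115 genes, and in 1544 of the 17853 transcript clusters tested. PRDM1, a transcriptional repressor, was -1.30 at 1 h and -0.06 and -0.01 afterwards, so its average of -0.46 (SE 0.070, adjusted p = 0.00592) describes 1 time. A high interaction p does not show that a gene's 3 differences are equal.

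**Figure D5:**
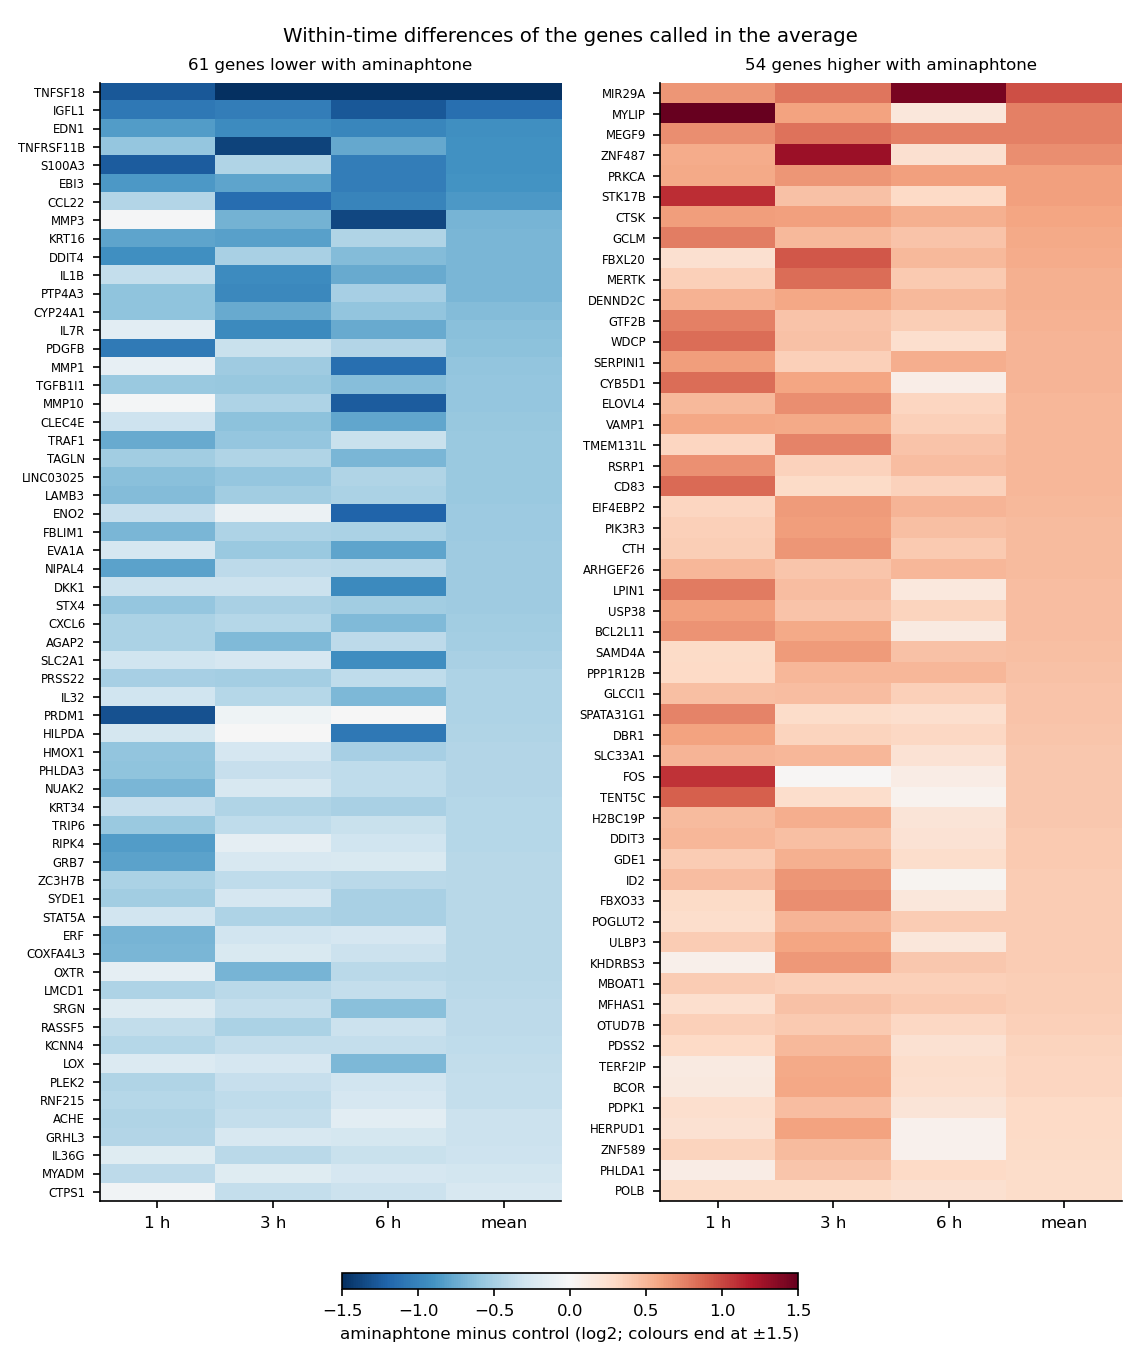
Aminaphtone minus control differences at 1, 3 and 6 h and their mean (columns) for the 61 genes called lower and the 54 called higher (rows, ordered by the mean); blue is lower and red higher with aminaphtone, on a log2 scale whose colours end at 1.5 in size. TNFSF18 is deep blue at 3 h and 6 h, while MMP3, MMP10, PRDM1 and FOS carry their difference at 1 or 2 times.

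Most of these genes were not called at any single time. Of the 115, 98 were called at no single time and 0 at all 3, while 6 were also called at 1 h, 4 at 3 h and 9 at 6 h. The single-time comparisons rest on 3 arrays a side and called 15 (0.084%), 5 (0.028%) and 18 (0.101%) transcript clusters. At 1 h, where arrays of equal replicate number went together, a replicate block within time gave 2212. Without control replicate 1 at 1 h the counts were 8611, 21 and 39, and the interaction called 2901. Over the 18 arrays left out in turn the limma counts ran from 6 at 1 h (without aminaphtone replicate 1 at 1 h), from 0 to 48 at 3 h, from 2 at 6 h and from 3 for the interaction. At 3 h 1134 transcript clusters had an unadjusted p under 0.05.

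Complete separation of treated from control arrays at all 3 times, which needs no model, held for 73 transcript clusters upward (0.409%) and 32 downward (0.179%). Of the genes called, 16 of the 54 higher and 27 of the 61 lower were so separated. Just inside the threshold were STK17B (0.61, adjusted p = 0.0499), FBXO33 (0.39) and WDCP (0.51), and just outside it GPR146 (-0.33, adjusted p = 0.0502), PPM1L (0.33) and EFNA1 (-0.41).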

How the data were processed

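Each of 18 total RNA samples was hybridised to 1 whole-transcript array. Per the labels the deposited table holds RMA values on the log2 scale, and the submitters' processing notes name Affymetrix Expression Console. Tool versions, the arrays normalized together and the annotation's build are not given in the sources used here. Of 28869 transcript clusters, 21062 are annotated, 19310 with 1 symbol, 1752 with several and 7807 with none, and 19279 of those with 1 symbol matched a RefSeq gene ID.

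Annotated transcript clusters with a mean above the 25th percentile of all (5.52) were tested: 17853, for 15586 genes. In limma 3.58.1 (R 4.3.3), every group of the 18 arrays had its own mean (12 residual and 4.86 prior degrees of freedom). The contrast was the mean of the 3 within-time differences, two-sided, with Benjamini-Hochberg adjustment at 0.05 over all transcript clusters tested. An interaction F test compared the 3 differences. The fit was checked on simulated data with independent noise of the same spread in every array. That check does not cover arrays as unequal as the 1 h controls. The number of arrays limits the precision.

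The labels share replicate numbers. Deviations from group means correlated between equal numbers at 0.726, 0.406 and 0.292 at 1 h, at -0.08, 0.481 and -0.005 at 3 h and at 0.421, -0.079 and 0.687 at 6 h. All were positive only at 1 h. The reported fits paired no arrays at any time, 1 h included, and replicate blocks entered only as alternatives.

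Members, gene lists and named genes were chosen with earlier results of these data known. Named were the 14 largest rises and falls, the 8 smallest p each way, up to 10 each way without overlap, the 6 steadiest each way, the 6 smallest interaction p, called list members (up to 4 a list, or 2 where none was called) and 17 inflammatory, vascular and stress genes, and other members where stated. Where a gene had several transcript clusters the brightest was used. Promoter windows and mature microRNAs are RefSeq's (GRCh38.p14). Alternatives changed the model, the block, the centring, the normalization, the filter, the variance, array weights and the arrays or times included. A filter at the 25th percentile of annotated transcript clusters (6.19) was added after seeing the data.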

Additional observations from a re-analysis of the deposited data

Results flagged for a closer look

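The difference between treated and control arrays itself varied with time in 4 named genes, by limma's interaction test. PRDM1 was -1.30 at 1 h, -0.06 at 3 h and -0.01 at 6 h (limma interaction adjusted p = 0.00444). MYLIP was 1.50, 0.60 and 0.17 (limma interaction adjusted p = 0.0499), with the same sign throughout. BNIP3, a mitophagy receptor that low oxygen induces, was 0.15, -0.16 and -1.34 (limma interaction adjusted p = 0.00444). PFKFB4, an enzyme that regulates glycolysis, was -0.08, 0.06 and -1.42 (limma interaction adjusted p = 0.0256). The averages of BNIP3 (-0.45) and PFKFB4 (-0.48) passed the threshold although the sign differed between times, so neither belongs to the common set.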

How the results depend on the processing

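Of the 66 named genes called, all kept their sign under every alternative in which they were tested (30 to 32 each). Part of this was fixed in advance. A gene with 1 sign at all 3 times keeps it when a time is left out. The additive model, the blocks, the filters and the variance setting leave the average difference itself unchanged. The call was kept by 31 with each of 18 arrays left out, and by TNFSF18 and MYLIP under all 32 alternatives. The 134 calls of the average became 767 with a replicate block within each time, 2518 with array weights (whose estimation stopped before convergence), 274 without the 1 h arrays, 18 without the 3 h arrays, 4 without the 6 h arrays, and 54 with a size over 0.5 required; all 134 were among the 767 and the 2518. Single arrays left out gave 47 to 3404 for the average, 6 to 8611 at 1 h, 0 to 48 at 3 h, 2 to 39 at 6 h and 3 to 2901 for the interaction. The block within each time gave 2212 at 1 h, 28 at 6 h and 11 for the interaction, and a block over all groups gave 3 for the interaction and 195 for the average. Array weights gave 296 at 3 h, 7960 at 6 h and 947 for the interaction. At 3 h, centring each array on its median gave 2 and a trended, robust variance 3. The remaining settings for the average, an additive model (104), centring (118), renewed quantile normalization (114), no filter (123), a filter at the 50th percentile (92), unannotated transcript clusters (119), a trended, robust variance (130) and the added filter (131), stayed within 1.5 times. The causes were not tested. Signals near the filter, as of MIR29A and IL7R, limit what the arrays can show.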

Other observations

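Some transcript clusters called higher with 1 sign at all 3 times carry several symbols and were not counted as genes. Those of SNHG1, a long noncoding RNA that hosts small nucleolar RNAs, averaged 0.73 (with SNORD22, adjusted p = 0.0155) and 0.51 (with SNORD31, adjusted p = 0.0118). Those of SNHG12, another such host, averaged 0.49 and 0.48 (adjusted p = 0.00569 and 0.0117). The transcript clusters shared by the replication histone genes H4C14 and H4C15 averaged 0.61 (adjusted p = 0.000322), and as a pair with identical values they count as 1 measurement. Transcript clusters of H2BC18 averaged 0.47 and 0.33 (adjusted p = 0.0103 and 0.0351). Near-identical copies share probes, so the gene behind a histone signal is uncertain. All 11 called transcript clusters of this kind with 1 sign were higher with aminaphtone.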
